A study of Mus musculus with 8 samples.

Results

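The 43 genes described here are immediate early and activity-regulated genes, the transcripts that neurons make within minutes to hours of firing. They were chosen by name, as every non-control probe whose gene name in the array files is one of the 43, out of 35701 gene names on the array. They had 56 probes, 33 genes with 1 probe and 10 with several. Of the 56 probes, 54 probes of 41 genes were well above background on all 8 arrays and were tested among 44316 probes. Maff, a small bZIP factor, was not well above background on any array. Klf4, a zinc finger factor, was well above background on 1 CKO and 1 WT array. Neither was tested.

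Hippocampal RNA that came down with tagged ribosomes was hybridised from 4 CKO and 4 WT mice, 1 array per mouse. CKO mice carried Ctcf loxP alleles on both chromosomes, and WT mice were wild type for Ctcf. All 8 mice also carried Camk2a-Cre and the RiboTag allele, in which Cre switches on a tagged copy of the ribosomal protein Rpl22, on a C57BL/6 background. They were adults at least 3 months old, naive and untreated, with 3 males and 1 female in each group (the females were CKO 2 and WT 3). The series text instead gives the controls as loxP homozygotes, and the labels of the samples were followed. Camk2a drives Cre in forebrain excitatory neurons, so both the loss of Ctcf and the tag are directed to those cells. In ribosome-bound RNA pooled from many cells, fewer cells of a type and less of such RNA per cell cannot be told apart. The labels name no stimulation before dissection, so the levels are those of naive, untreated mice.

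Calcium entry and kinase signalling switch the immediate early genes on without new protein synthesis, through factors such as CREB, SRF and MEF2 that already sit on their promoters. The first products are transcription factors of the Fos, Jun, Egr, Npas4 and Nr4a families, and among the other products are synaptic and secreted proteins such as Arc, Homer1a and BDNF, and phosphatases that switch the kinases off again. In the hippocampus they mark neurons that were recently active and are required for lasting synaptic change and memory. CTCF, the zinc finger protein that the knockout removes, binds DNA and anchors chromosome loops that bring promoters and enhancers together.

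Promoter stretches of 8 members are shown because they carry TGACG, the core of the cAMP response element to which CREB binds; they are examples among the 23 members that carry it, and each is also described by its values below. They are from RefSeq (GRCm38.p6), 5′ to 3′ on the strand of the gene, and capitals mark TGACG or its reverse complement CGTCA, which in Dusp1 join in the full element TGACGTCA.
Fos, chr12:85473730-85473859, plus strand: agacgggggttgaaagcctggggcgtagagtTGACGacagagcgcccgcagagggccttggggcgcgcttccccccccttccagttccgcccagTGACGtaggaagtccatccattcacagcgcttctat
Fosb, chr7:19310069-19310138, minus strand: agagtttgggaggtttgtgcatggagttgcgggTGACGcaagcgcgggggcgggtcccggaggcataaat
Junb, chr8:84978818-84978887, minus strand: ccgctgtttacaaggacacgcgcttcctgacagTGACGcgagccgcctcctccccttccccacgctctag
Npas4, chr19:4990109-4990178, minus strand: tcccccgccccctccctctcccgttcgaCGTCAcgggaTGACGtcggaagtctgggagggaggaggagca
Nr4a1, chr15:101266759-101266828, plus strand: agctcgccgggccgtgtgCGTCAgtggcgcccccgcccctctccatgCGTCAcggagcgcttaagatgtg
Homer1, chr13:93303667-93303756, plus strand: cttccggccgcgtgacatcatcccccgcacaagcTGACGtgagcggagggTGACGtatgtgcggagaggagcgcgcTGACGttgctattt
Plk3, chr4:117134004-117134113, minus strand: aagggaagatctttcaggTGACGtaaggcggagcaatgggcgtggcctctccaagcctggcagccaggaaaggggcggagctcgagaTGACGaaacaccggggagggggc
Dusp1, chr17:26508586-26508685, minus strand: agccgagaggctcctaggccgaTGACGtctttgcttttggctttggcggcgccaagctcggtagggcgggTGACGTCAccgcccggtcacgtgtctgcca

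The promoter table gave 48 promoters for 33 of the members, each from 250 bases before to 50 bases after a start, and both strands were searched. TGACG stood in a promoter of 23 of the 33 members (69.7%), against 23% of 27025 genes. The full element TGACGTCA, which contains TGACG, was found in 5 members, Arl4d, Btg2, Dusp1, Maff and Plk2 (15.2%), against 2.03% of all genes. The CArG box that SRF binds was found in Dusp5 and Egr2 (6.06% of the members, against 1.81% of all genes). The EGR site GCGTGGGCG was found in Maff alone (3.03%, against 0.707%). The core CTCF motif was found in 0 of the 33, and in 11 of 27025 genes (0.0407%). It was so rare in this window that the 0 does not set the members apart. A match is a description of these letters in this window.

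Signal is given throughout as log2 of the processed intensity minus the 75th percentile of its array, so 0 is the 75th percentile of all probes, and differences are CKO minus WT. Between 72.2% (CKO 3) and 81.5% (WT 1) of probes were well above background on each array, and the first principal component, with 52.9% of the variance, placed CKO 3 at 165.6 and the 7 other arrays between -82.8 and 62.3. The arrays lay on 3 slides, with CKO 1, CKO 2, WT 2 and WT 3 on slide 2, CKO 3, CKO 4 and WT 4 on slide 3, and WT 1 alone on slide 1. On the first principal component the slide 3 arrays had 165.6 (CKO 3), 62.3 (WT 4) and 31.4 (CKO 4). All arrays of slides 1 and 2 lay below 0, between -82.8 and -14.6. The parts of slide and mouse in this component were not tested. Ctcf averaged -2.24 ± 0.29 in CKO mice and -1.37 ± 0.30 in WT mice (SD, n = 4 each), with no overlap (exact two-sided permutation p = 0.0286, the smallest that 4 against 4 allow; limma adjusted p = 0.738). The labels do not give the exons between the loxP sites, so it is unknown whether the Ctcf probe reads deleted sequence. Medians of excitatory neuron markers were 3.23 to 3.56 in CKO mice and 2.95 to 3.46 in WT mice, and all 6 were well above background. Markers of other cells were also present. Of 8 microglial markers all 8 were tested, with medians of -1.45 to -0.85 in CKO mice and -1.73 to -1.18 in WT mice. The astrocyte marker Gja1 was the marker that was not well above background on any array.

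No early or activity-regulated gene differed between CKO and WT mice past an adjusted p of 0.05 (limma, Benjamini-Hochberg over 44316 probes; 0 of 54 member probes, with 0% of all probes past it). At an unadjusted p under 0.05 there were 2 of 54 member probes (3.7%), against 5.33% of all probes, or 1 of 41 genes by the brightest probe (2.44%), against 5.01% of all genes. The higher was Plk3 (1.85% of member probes, against 2.12% of all probes higher), and the lower was a second probe of Per1 (1.85%, against 3.21% lower). In 0 of 54 member probes were the genotypes without overlap, where 1.71% of all probes had CKO above WT and 1.57% had CKO below. The CKO minus WT difference was within 0.5 of 0 on the log2 scale in 39 of 41 genes. The exceptions were Plk3 and Trib1. The 95% interval of the difference lay within 1 of 0 for 30 of the 41, so for these a doubling or a halving in CKO lay outside the interval, while 10 intervals reached above 1 and 2 reached below -1.

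**Figure D1:**
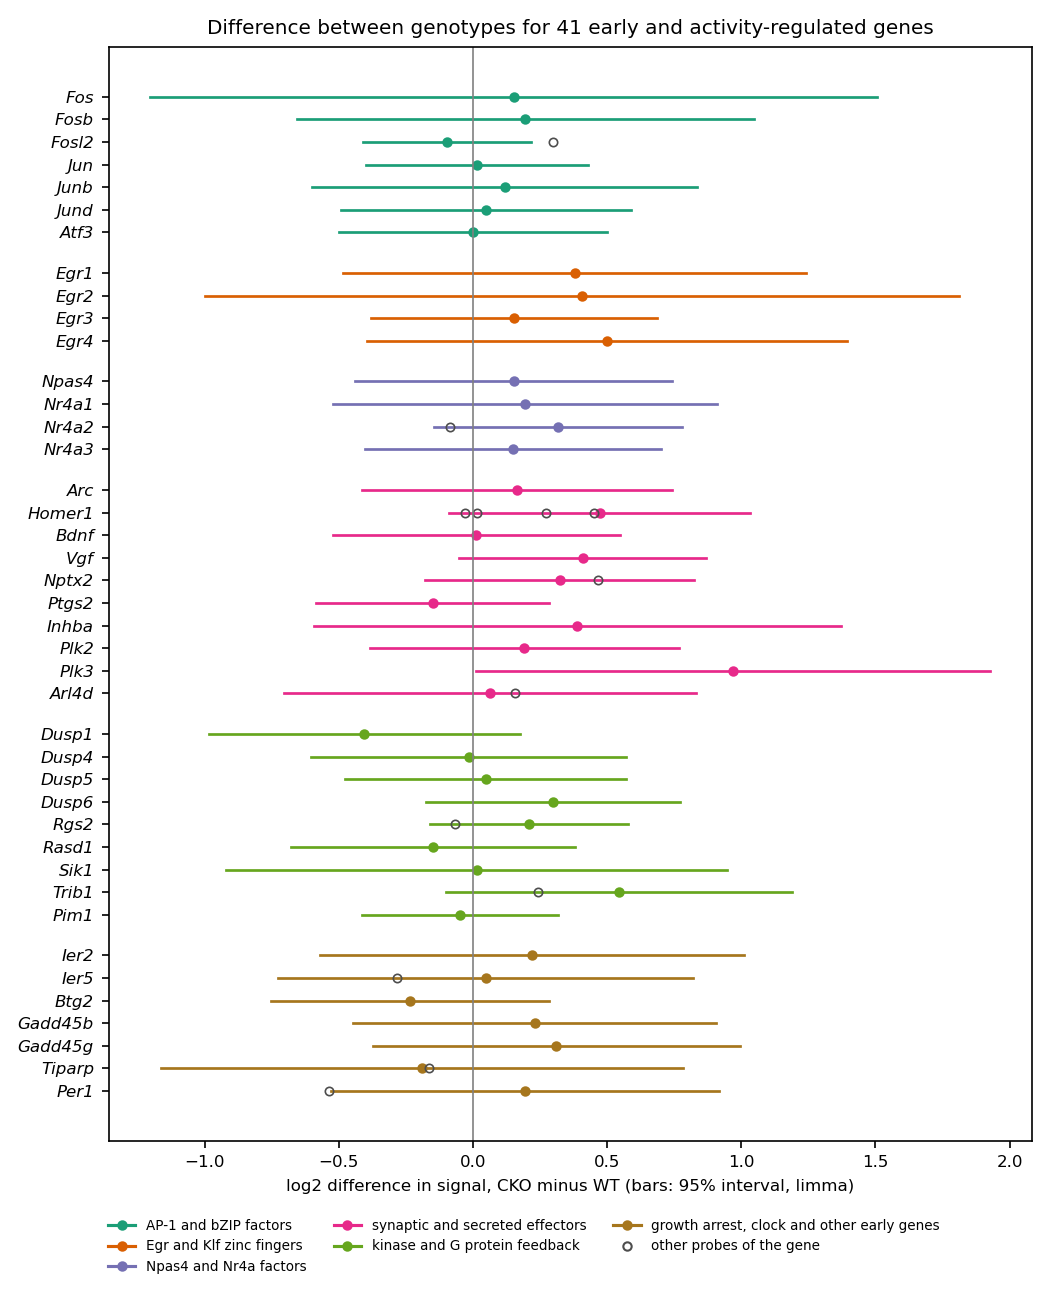
CKO minus WT difference in log2 signal (x axis) for the 41 tested genes, in 6 groups by role, with the brightest probe of each gene as a filled point, its 95% limma interval as a bar and other probes as open circles. All intervals except that of Plk3 cross 0, and 32 of 41 points lie above 0.

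The direction of the differences leaned to CKO over all 8 mice, and no longer did so without CKO 3. The difference was above 0 in 32 of 41 genes (78%), against 41.5% of all 29502 genes taken by their brightest probe, and the median over members was 0.15, against -0.078 over all genes. With quantile normalization it was above 0 in 33 of 41 (80.5%, against 48.6%). CKO 3 was the highest of the 8 mice in 31 of the 41 genes (75.6%), against 22.2% of all genes. By probe it was highest in 39 of 54 (72.2%), against 20.5% of all probes and 22.8% of those well above background on all 8 arrays, and with quantile normalization in 39 of 54, against 24.1%. CKO 1 and CKO 4 were highest in 0 member genes (7.15% and 6.92% of all genes) and CKO 2 in 2 (8.85%). WT 1 was highest in 3 (12.7%), WT 2 in 1 (14.8%), WT 3 in 1 (19%) and WT 4 in 3 (8.36%). Without CKO 3 the median over members was -0.067 and 14 of 41 genes lay above 0, against 46.8% of all genes.

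The median deviation of the 41 genes from their mean over the 8 mice also put CKO 3 first. It was 0.64 in CKO 3, 0.069 in CKO 2, -0.21 in CKO 1 and -0.26 in CKO 4, against 0.096 in WT 4, -0.056 in WT 3, -0.12 in WT 1 and -0.24 in WT 2. CKO 3 thus stood above every other mouse, while CKO 1 and CKO 4 lay at the low end beside WT 2. Over all genes the median deviation of CKO 3 was -0.14, so the members lay on the other side of 0 from the array as a whole. CKO 3 and CKO 4 shared slide 3 with WT 4, and the median CKO minus WT difference over members was 0.067 within slide 3 and 0.050 within slide 2. Over all probes tested the median difference was -0.020 within slide 3 and -0.075 within slide 2, which does not hold CKO 3. The array of CKO 3 had the smallest share of probes well above background. Its part in these values was not tested.

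**Figure D2:**
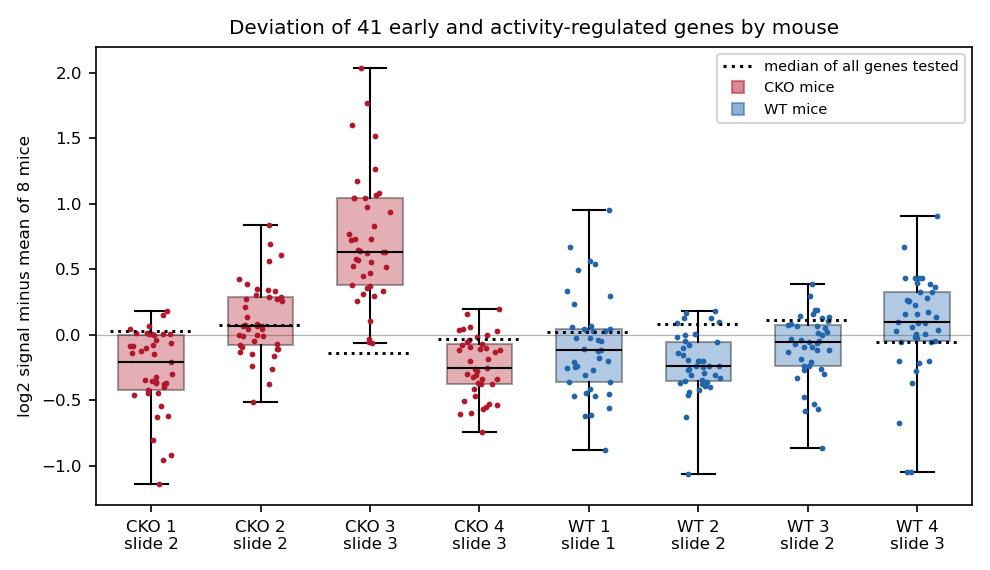
Deviation of each of the 41 genes from its mean over 8 mice (y axis, log2), by mouse, with boxes for the quartiles, whiskers for the full range and a dotted line for the median of all genes tested. CKO 3 has a median of 0.64 and all other mice lie between -0.26 and 0.096.

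CKO 3 was at the same time the mouse with the highest medians of excitatory neuron markers (3.56) and of CA1 pyramidal markers (2.17, against 1.35 to 1.88 in the other CKO mice and 1.15 to 1.55 in WT mice). Single markers differed. Camk2a had 5.84 in CKO 3, 5.66 to 6.26 in the other CKO mice and 5.81 to 6.10 in WT mice. Neurod2 had 2.27 in CKO 3, 2.12 to 2.56 in the other CKO mice and 2.27 to 2.69 in WT mice. CKO 3 was the highest mouse in 3 of the 6 excitatory neuron markers and 4 of the 5 CA1 markers. It had the lowest median of the 5 astrocyte markers (-0.23, against 0.19 to 0.75 in the other CKO mice and 0.010 to 0.58 in WT mice), though not for each of them: Aldoc had 3.93 in CKO 3, 3.19 to 3.96 in the other CKO mice and 3.17 to 3.34 in WT mice, and Slc1a3 had -0.75 in CKO 3, -1.02 to -0.88 in the other CKO mice and -1.86 to -0.53 in WT mice. Its microglial median of -0.89 (-1.45 to -0.85 in the other CKO mice and -1.73 to -1.18 in WT mice) and its oligodendrocyte median of 1.14 (1.15 to 1.63 in the other CKO mice and 0.93 to 1.07 in WT mice) were above those of all WT mice. The single markers were mixed, and CKO 3 was the highest mouse in 1 of 8 microglial and 0 of 6 oligodendrocyte markers. It was the lowest of the 8 mice for the oligodendrocyte markers Mobp (0.20) and Mog (-1.20) and the microglial marker C1qa (-3.44). CKO 3 also had the lowest median of endothelial markers (-2.02, against -1.60 to -1.16 in the other CKO mice and -1.86 to -1.26 in WT mice). Dentate granule markers, of which 5 of 6 had a difference below 0, had medians of 0.18 to 0.50 in CKO mice and 0.48 to 1.22 in WT mice. The difference was above 0 in 5 of 6 excitatory neuron, 4 of 5 CA1, 4 of 5 interneuron and 4 of 5 astrocyte markers. It was above 0 in 5 of 6 oligodendrocyte, 7 of 8 microglial and 2 of 6 endothelial markers, against 41.5% of all genes. The part of these cell markers in the values of the early genes was not tested.

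The spread among CKO mice was wider than among WT mice for most members. The SD was larger in CKO mice in 32 of 41 genes (78%), against 56.6% of all genes, with a median SD of 0.44 in CKO mice and 0.30 in WT mice. Without CKO 3 it was larger in 19 of 41 (46.3%), against 38.7% of all genes, with a median SD of 0.29 among the remaining CKO mice.

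Of the 8 AP-1 and bZIP genes, whose proteins pair up to bind DNA, 7 were tested and 0 passed (adjusted p 0.802 to 1.00). The median difference was 0.049, and -0.092 without CKO 3, where 0 of 7 lay above 0. Fos, the classical marker of recent firing, had -3.45, -2.57, -0.89 and -3.40 in CKO mice and -1.70, -3.28, -2.60 and -3.33 in WT mice. CKO 3 was 0.82 above the next mouse, WT 1, and the other 3 CKO mice lay within the WT range or, in CKO 1 and CKO 4, just below it. The difference was 0.15 (SE 0.60, adjusted p = 0.926), and it was -0.071 within slide 2, 1.19 within slide 3 and -0.41 without CKO 3. Its spread within genotype was among the 3 widest of the members, with an SD of 1.00.

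Fosb, whose stable splice form ΔFosB builds up with repeated activity, had 1.54, 2.77, 2.85 and 1.56 in CKO mice and 1.47, 1.77, 2.23 and 2.47 in WT mice. CKO 2 and CKO 3 were the highest of the 8 mice, and CKO 1 and CKO 4 lay near the lowest WT mouse. The difference was 0.20 (SE 0.38, adjusted p = 0.847). Junb, a Jun family partner of the Fos proteins, had 0.28, 0.91, 1.68 and 0.17 in CKO mice and 0.66, 0.50, 0.67 and 0.74 in WT mice. All 4 WT mice lay between the 2 higher and the 2 lower CKO mice, with an SD of 0.69 in CKO mice and 0.099 in WT mice and a difference of 0.12 (SE 0.32, adjusted p = 0.888).

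Fosl2, which encodes the Fos relative Fra-2, was the steadiest member by the brighter of its probes, at 2.44, 2.48, 2.42 and 2.39 in CKO mice and 2.52, 2.65, 2.48 and 2.46 in WT mice. The groups overlapped narrowly, and the difference was -0.097 (SE 0.14, adjusted p = 0.802). Its second probe had 0.77, 0.95, 2.18 and 1.23 in CKO mice and 1.11, 0.41, 1.08 and 1.35 in WT mice, so that CKO 3 was the highest mouse at that probe and lay below all WT mice at the first. Jun, Jund and Atf3 had differences of 0.015, 0.049 and -0.00027, with CKO 3 highest for Jun and Jund and WT 1 highest for Atf3.

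Of the 5 Egr and Klf zinc finger genes, 4 were tested and 0 passed (adjusted p 0.738 to 0.810). All 4 differences were above 0, with a median of 0.39, and CKO 3 was the highest mouse in all 4. Without CKO 3 the median was -0.0062 and 2 of 4 lay above 0. Egr1, also known as Zif268 and needed for late memory storage, had 0.89, 1.46, 2.77 and 1.67 in CKO mice and 1.84, 1.09, 1.03 and 1.31 in WT mice. CKO 3 was 0.93 above WT 1, the next mouse, and CKO 1 was the lowest. The difference was 0.38 (SE 0.38, adjusted p = 0.753), 0.022 without CKO 3, 0.12 within slide 2 and 0.91 within slide 3.

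Egr2, a zinc finger factor also known as Krox20, had the widest spread within genotype, with an SD of 1.04. It had -2.60, -1.38, 0.36 and -2.29 in CKO mice and -1.19, -1.76, -1.87 and -2.73 in WT mice. CKO 3 was 1.55 above WT 1, and the other CKO mice lay within the WT range. The difference was 0.41 (SE 0.62, adjusted p = 0.810), 1.76 within slide 3, -0.18 within slide 2 and -0.21 without CKO 3. Egr4 had the same shape, with 2.69 in CKO 3, 0.77 to 1.16 in the other CKO mice and 0.59 to 1.17 in WT mice, and Egr3, a relative of Egr1, had 4.45 in CKO 3, 3.54 to 3.85 in the other CKO mice and 3.37 to 3.97 in WT mice.

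The 4 genes of the Npas4 and Nr4a group, 1 a calcium-induced bHLH-PAS factor that regulates inhibitory synapses and 3 orphan nuclear receptors, had differences from 0.15 to 0.32 and 0 passed (lowest adjusted p 0.738). CKO 3 was the highest mouse in all 4, and without it the median was -0.042 and 1 of 4 lay above 0. Npas4 had 0.17, 0.82, 1.26 and 0.16 in CKO mice and 0.50, 0.29, 0.54 and 0.47 in WT mice. As with Junb, the WT mice lay between the 2 higher and the 2 lower CKO mice, and the difference was 0.15 (SE 0.26, limma unadjusted p = 0.575). Nr4a1 had 1.03, 1.22, 2.22 and 0.62 in CKO mice and 1.20, 0.93, 0.93 and 1.24 in WT mice. CKO 3 was 0.98 above the next mouse and CKO 4 was the lowest, with a difference of 0.19 (SE 0.32, adjusted p = 0.819). Nr4a3 had a difference of 0.15, and the probes of Nr4a2 had 0.32 and -0.086.

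**Figure D3:**
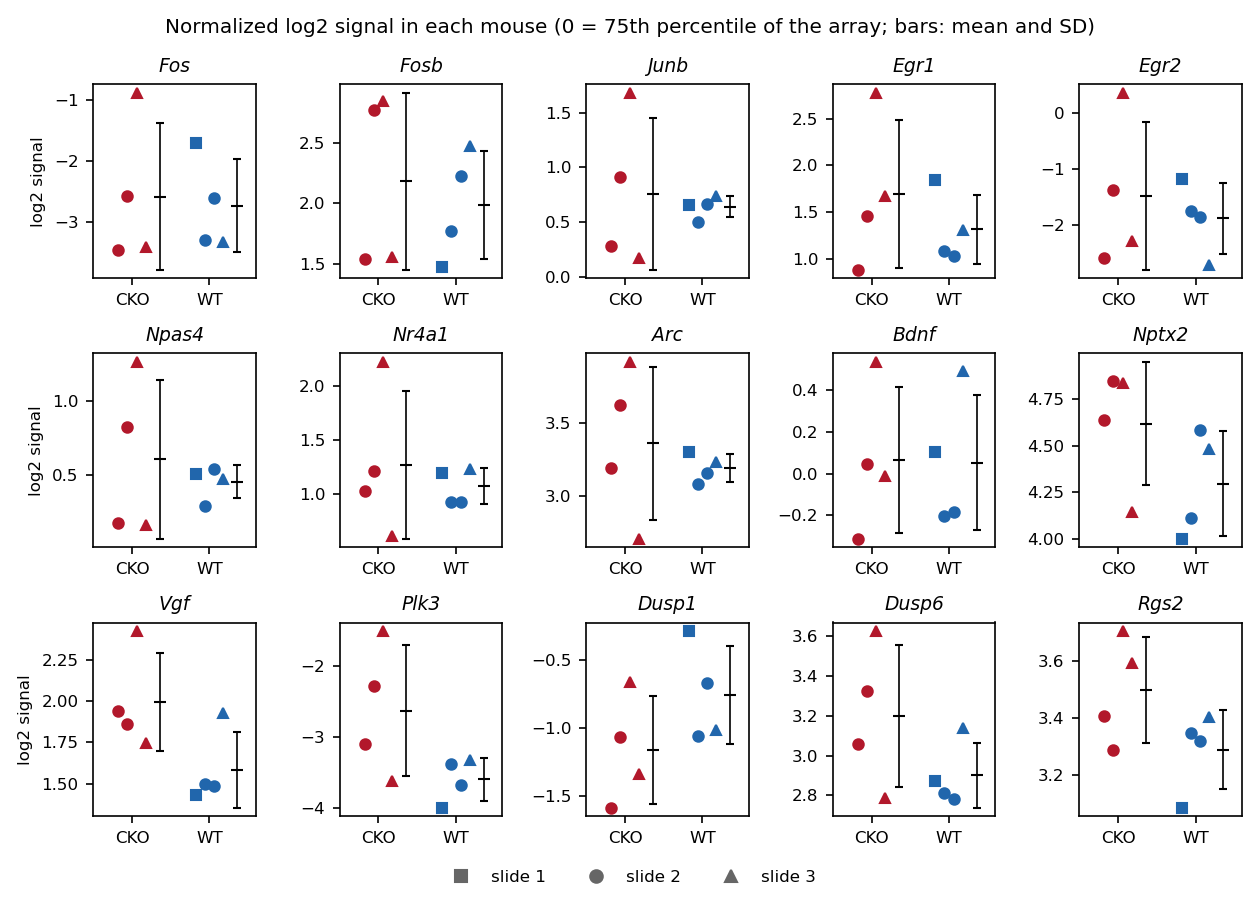
Normalized log2 signal (y axis, 0 is the 75th percentile of the array) of 15 members in each CKO mouse (red, left) and WT mouse (blue, right), with mean and SD as bars and the marker shape for the slide. CKO 3, a triangle, is the highest mouse in 13 of the 15 panels, and Nptx2 (CKO 2) and Dusp1 (WT 1) are the exceptions.

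The 10 genes grouped as synaptic and secreted effectors, with Plk3, Arl4d and Ptgs2 placed among them, had 9 differences above 0. Their median was 0.26, and 0 passed (adjusted p 0.738 to 0.986). Without CKO 3 the median was 0.11 and 6 of 10 lay above 0. Arc, whose protein removes AMPA receptors from synapses, had 3.19, 3.62, 3.91 and 2.71 in CKO mice and 3.30, 3.08, 3.16 and 3.23 in WT mice. Both the highest and the lowest mouse were CKO, with an SD of 0.52 in CKO mice and 0.094 in WT mice. The difference was 0.17 (SE 0.25, adjusted p = 0.811).

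Plk3, a polo-like kinase gene, had -3.10, -2.28, -1.51 and -3.62 in CKO mice and -3.99, -3.38, -3.68 and -3.33 in WT mice. The 3 highest mice were CKO, and CKO 4 lay within the WT range. The difference of 0.97 (SE 0.42, 95% interval 0.012 to 1.93), a 1.96-fold higher signal, had an unadjusted p of 0.0477 and an adjusted p of 0.738 and was the largest of the members. It was 0.84 within slide 2, 0.76 within slide 3 and 0.60 without CKO 3 (unadjusted p = 0.102). The probe lies at chr4:116801317-116801376 of mm9. Plk2, its relative that weakens overactive synapses, had a difference of 0.19.

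Vgf, a secreted neuropeptide precursor, had 1.94, 1.86, 2.42 and 1.75 in CKO mice and 1.43, 1.50, 1.49 and 1.93 in WT mice. The 3 lowest mice were WT, and WT 4 lay among the CKO mice. The difference was 0.41 (SE 0.20, adjusted p = 0.738), 0.27 without CKO 3 and 0.16 within slide 3. Nptx2, a pentraxin that gathers AMPA receptors, had 4.64, 4.85, 4.84 and 4.15 in CKO mice and 4.00, 4.11, 4.58 and 4.49 in WT mice. CKO mice were the 3 highest and CKO 4 was within the WT range, with a difference of 0.32 (SE 0.22, adjusted p = 0.738), which was 0.0083 within slide 3, and the second probe of the gene had 0.46.

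Bdnf, the growth factor that signals through TrkB, had -0.31, 0.048, 0.53 and -0.011 in CKO mice and 0.10, -0.20, -0.18 and 0.49 in WT mice. Each genotype had 1 mouse near 0.5, CKO 3 and WT 4, and the difference was 0.012 (SE 0.24, adjusted p = 0.986). The array had 1 Bdnf probe, so its promoter-specific transcripts were not resolved. Inhba, the subunit of activin A, had -3.08, -2.09, -1.98 and -2.89 in CKO mice and -3.27, -3.77, -2.77 and -1.80 in WT mice. WT 4 was the highest and WT 2 the lowest mouse, with a difference of 0.39 (SE 0.43, adjusted p = 0.768), 0.10 without WT 2, 0.68 within slide 2 and -0.63 within slide 3. Ptgs2, which makes prostaglandins, was the member of this group with a difference below 0, at -0.15.

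Homer1 makes long scaffold proteins and the short Homer1a, an activity-induced form that ends early and loosens the scaffold. Its 5 probes lie along chromosome 13 (mm9, plus strand), and 4 of them are shown because they lie at different places along the short and long transcripts, with capitals for the stop codon that closes the open frame of the third.
Homer1 probe 1, chr13:94116595-94116654: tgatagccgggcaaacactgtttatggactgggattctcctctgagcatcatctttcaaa
Homer1 probe 2, chr13:94125924-94125983: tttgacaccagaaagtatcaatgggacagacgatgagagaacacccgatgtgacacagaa
Homer1 probe 3, chr13:94126009-94126068: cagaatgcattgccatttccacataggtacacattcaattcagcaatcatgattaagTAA
Homer1 probe 4, chr13:94157507-94157566: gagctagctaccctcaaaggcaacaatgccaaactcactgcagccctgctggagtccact

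Probes 1, 2 and 3 are annotated in the files to the short transcript, and probes 4 and 5 to long ones. Whether probes 1 and 2 also read the long transcripts was not resolved. Probe 3, at the short end, had -1.70, -1.04, -0.57 and -2.13 in CKO mice and -2.46, -2.00, -1.71 and -1.09 in WT mice. CKO 3 and CKO 2 were the highest mice and WT 1 was the lowest, with a difference of 0.45 (SE 0.39, adjusted p = 0.742). Probe 2 had 3.45, 3.75, 3.92 and 3.44 in CKO mice and 3.15, 3.41, 2.54 and 3.57 in WT mice. WT 3 stood lowest, and the difference was 0.47 (SE 0.25, adjusted p = 0.738). It was 0.26 without WT 3, 0.22 in males, 0.62 within slide 2 and 0.11 within slide 3.

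Probe 4, in the long transcripts, was among the steadiest of all member probes. It had 1.80, 1.67, 1.99 and 1.76 in CKO mice and 1.77, 1.82, 1.83 and 1.93 in WT mice, with overlapping groups and a difference of -0.031 (SE 0.15, adjusted p = 0.938). Probe 1 had a difference of 0.013 and probe 5, at the 3′ end of the long transcripts, 0.27. Differences between the probes were not tested.

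**Figure D4:**
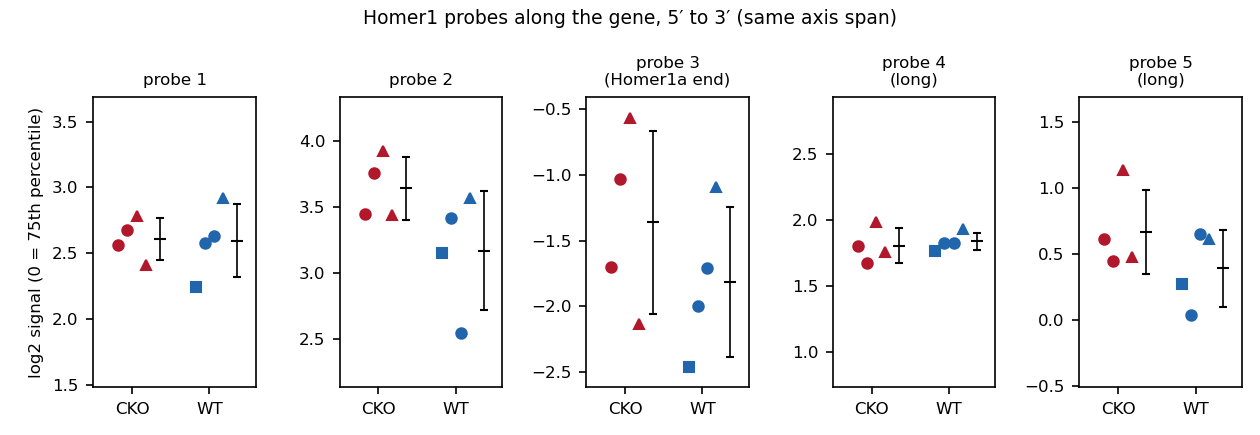
Normalized log2 signal (y axis, the same span in each panel) of the 5 Homer1 probes in CKO mice (red, left) and WT mice (blue, right), with mean and SD as bars and the marker shape for the slide (square 1, circle 2, triangle 3). The groups overlap in all 5 panels, and probe 4 has the smallest spread.

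The 9 genes of kinase and G protein feedback had 5 differences above 0, with a median of 0.014, and 0 passed (adjusted p 0.738 to 0.991). Without CKO 3 the median was -0.12 and 3 of 9 lay above 0. Dusp1, a nuclear phosphatase that inactivates MAP kinases, had -1.58, -1.06, -0.66 and -1.34 in CKO mice and -0.29, -1.06, -0.67 and -1.01 in WT mice. WT 1 was the highest and CKO 1 the lowest mouse. The difference of -0.40 (SE 0.26, adjusted p = 0.738) was the lowest among the brightest probes of the members, and was -0.57 without CKO 3 (limma unadjusted p = 0.0445, adjusted p = 1.00) and 0.013 within slide 3.

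Dusp6, a cytoplasmic phosphatase for ERK, had 3.06, 3.33, 3.63 and 2.79 in CKO mice and 2.87, 2.81, 2.78 and 3.14 in WT mice. CKO 3 and CKO 2 were the highest, and CKO 4 was within the WT range, with a difference of 0.30 (SE 0.21, adjusted p = 0.738) and 0.16 without CKO 3. Rgs2, which shortens Gq signalling, was among the steadiest members, with 3.41, 3.29, 3.70 and 3.59 in CKO mice and 3.09, 3.35, 3.32 and 3.40 in WT mice. The 3 highest mice were CKO, and its difference of 0.21 (SE 0.16, adjusted p = 0.738) stood beside -0.066 at its second probe.

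Trib1, a pseudokinase gene, had a difference of 0.54 (SE 0.28, adjusted p = 0.738) and 0.24 at its second probe, with CKO 3 highest at both. Sik1, a salt-inducible kinase that restrains CREB coactivators, had -0.087 in CKO 3, -2.22 to -1.20 in the other CKO mice and -1.62 to -0.87 in WT mice, with a difference of 0.014. Dusp4, Dusp5, Rasd1 and Pim1 had differences between -0.15 and 0.047.

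The 7 growth arrest, clock and other early genes had 5 differences above 0, with a median of 0.19, and 0 passed (adjusted p 0.751 to 0.959). Without CKO 3 the median was -0.088 and 2 of 7 lay above 0. Per1, a clock gene that neuronal activity also induces, had probes that differed in sign. The probe at chr11:68923364-68923423 (mm9), annotated to its RefSeq transcript, had 0.47, 1.07, 1.75 and 0.34 in CKO mice and 0.70, 0.35, 0.77 and 1.04 in WT mice. CKO 3 was highest and the other CKO mice overlapped with WT, with a difference of 0.19 (SE 0.32, adjusted p = 0.823).

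The other Per1 probe, at chr11:68919895-68919954 and annotated to a cDNA clone, had -0.92, -0.016, -0.52 and -0.35 in CKO mice and 0.093, -0.026, 0.23 and 0.042 in WT mice. The 3 lowest mice were CKO, and CKO 2 lay 0.010 above WT 2. The difference was -0.54 (SE 0.21, 95% interval -1.01 to -0.065, unadjusted p = 0.0300, adjusted p = 0.738). The difference between the probes was not tested. Ier5, an early gene, also had probes of unlike direction, 0.048 with CKO 3 highest and -0.28 with CKO 3 lowest.

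Gadd45b and Gadd45g, which take part in stress responses and DNA demethylation, had differences of 0.23 and 0.31, with CKO 3 highest in both. Ier2 had 0.22 with CKO 2 highest, and Btg2, an antiproliferative gene, -0.23 with WT 1 highest. Tiparp, an ADP-ribosyltransferase gene, had -0.99 in CKO 3, -3.22 to -2.14 in the other CKO mice and -2.41 to -1.54 in WT mice, with a difference of -0.19, and -0.17 at its second probe.

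Of 37 genes for upstream signalling to these genes (CREB and SRF factors, their coactivators and the kinases), all 37 were tested, 0 passed the adjusted threshold, 28 had a difference above 0 (41.5% of all genes did) and the median was 0.12, or 0.046 with quantile normalization. At an unadjusted p under 0.05, 2 were higher and 0 lower, where 5.01% of all genes passed in either direction. Rps6ka3, the kinase RSK2 that phosphorylates CREB, had 3.63, 3.03, 3.32 and 3.27 in CKO mice and 2.29, 2.57, 2.38 and 2.59 in WT mice. Every CKO mouse lay above every WT mouse, as in 1.71% of all probes tested, with a difference of 0.86 (SE 0.18, adjusted p = 0.731). Crtc3, a CREB coactivator, had -1.01, -0.94, -0.62 and -0.91 in CKO mice and -1.13, -1.39, -1.38 and -1.25 in WT mice, again without overlap and with a difference of 0.42 (SE 0.16, adjusted p = 0.738).

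Of 33 other early genes 31 were tested, with 21 above 0, a median of 0.12, 0 past the adjusted threshold, and 0 higher and 2 lower at an unadjusted p under 0.05. Beside these and the following counts, 41.5% of all genes lay above 0 and 5.01% had an unadjusted p under 0.05 in either direction. CKO 3 was the highest mouse in 17 of the 31 genes, against 22.2% of all genes, and without CKO 3 the median of the 31 was 0.020. Myc, the growth-related transcription factor, had -3.40, -3.37, -4.13 and -3.06 in CKO mice and -2.45, -2.61, -2.91 and -2.51 in WT mice. All CKO mice lay below all WT mice, as in 1.57% of all probes tested, and CKO 3 was the lowest. The difference was -0.87 (SE 0.24, adjusted p = 0.738). Cyr61, a matricellular protein, was well above background on 2 CKO and 4 WT arrays, with a difference of -1.01 (SE 0.27, adjusted p = 0.738). Among 23 later activity-regulated genes 22 were tested, with 15 above 0, a median of 0.12 (0.037 with quantile normalization), 0 past the adjusted threshold and 1 at an unadjusted p under 0.05, the synaptic vesicle protein gene Sv2c (0.55, SE 0.23, adjusted p = 0.738). Of 17 genes for partners of Arc, Homer1, BDNF and Nptx2, 16 were tested, with 14 above 0, a median of 0.14 (0.048 with quantile normalization) and 0 past the adjusted threshold. Homer2, the relative of Homer1, had 0.38, 0.39, 0.44 and 0.50 in CKO mice and 0.040, 0.11, -0.15 and -0.090 in WT mice, without overlap and with a difference of 0.45 (SE 0.14, adjusted p = 0.738). Of all probes tested, 1.71% had CKO above WT without overlap.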

How the data were processed

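The mice are labelled as biological replicates, with 4 CKO and 4 WT arrays of 1 mouse each. Per the labels' protocols, the anti-HA precipitate's RNA went through whole transcriptome amplification and Cy5 labelling. Scanner files as deposited, from Agilent Feature Extraction 11.5 per the submitters' processing notes, give a background-subtracted and detrended red intensity per spot, with mm9 coordinates per the file headers. The authors' deposited value table is a linear intensity, and no label or header states its normalization or centring. Its medians were 1507, 1362, 1987 and 1561 for CKO 1 to 4 and 1309, 1313, 1263 and 1645 for WT 1 to 4. Over spots with a value in both, its ranks followed the processed signal (Spearman 0.999 on every array), so its direction within an array is known. Between 7359 (WT 3) and 11803 (CKO 3) spots of an array were blank in it.

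Control spots and outlier flags were left out and spots of a probe averaged. Of 55663 probes used, those well above background on at least 4 of 8 arrays were tested with lmFit and eBayes of limma 3.58.1 under R 4.3.3 (two-sided, Benjamini-Hochberg). A gene was counted by its brightest probe. In simulated data for CKO against WT over 44316 probes, the fit recovered 26 of 100 probes with a log2 change of 1 and 72 of 100 with a change of 2, with 7 false calls. The simulated noise was independent between probes and mice, without the slide and array effects that probes share. These counts may therefore not hold for the real arrays. The number of arrays limits the precision. Replicate numbers do not pair the mice (correlations of deviations -0.31, 0.34, -0.39 and 0.036). The members and the lists were chosen with earlier results of these data known. Members named with every mouse were the standard readouts, those at an unadjusted p under 0.05, and the 3 with the widest and the 3 with the narrowest spread. From each other list, the genes at an unadjusted p under 0.05 were taken, or else the 2 with the smallest p. Alternatives covered normalization, background correction, the authors' values, filters, the prior variance, slide, sex and replicate blocks, and each mouse left out.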

Additional observations from a re-analysis of the deposited data

Results flagged for a closer look

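In 108 groups of 4 mice, 1 mouse stood far from the others in 5, where chance gives about 1 in 20 groups. Among CKO mice, Jun had 2.72 in CKO 3, and the nearest CKO mouse had 2.29. Among WT mice, Vgf had 1.93 in WT 4, and the nearest had 1.50. WT 1 stood apart in 3 genes. It had -0.49 for Dusp4, where the nearest WT mouse had -0.13, and -0.50 for Dusp5, where the nearest had 0.069. For Trib1 it had -0.92, above the nearest at -1.22.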

How the results depend on the processing

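Across 23 alternatives, 0 member probes passed the adjusted threshold. Of 459 differences of named members under alternatives, 26 changed sign. The count of all probes past the threshold was 5 with normexp and quantile normalization, 3 with no filter on dim probes, 3 with probes well above background on all 8 arrays, 3 with a trended and robust prior variance, 1 at gene level, 1 with the slide as a random block, and 0 to 1 when each mouse was left out (1 without WT 2). The count of member genes at an unadjusted p under 0.05, 1 in the report, was 3 with normexp, the authors' values or the trended prior, 0 with no filter, a fixed or random slide block, slide 2 alone, sex as a covariate or males only, and 0 to 2 when each mouse was left out (0 without CKO 2, WT 1, WT 2 or WT 3, and 2 without CKO 4 or WT 4). The cause was not tested. The median over members was 0.050 to 0.30 under all alternatives but without CKO 3, where it was -0.067. With median scaling it was 0.30, and the median of all probes was 0.048, against -0.096 with the 75th percentile. With the replicate number as a block the median was 0.15 and the count at an unadjusted p was 1. Each CKO mouse deviated most like a WT mouse of another number.

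With each mouse left out in turn, the lowest value came without CKO 3 for all of the following. The difference was -0.088 to 0.38 for Per1 (brighter probe), -0.41 to 0.49 for Fos, -0.027 to 0.41 for Fosb, -0.19 to 0.32 for Junb, -0.019 to 0.38 for Arc, -0.067 to 0.30 for Npas4, -0.12 to 0.41 for Nr4a1, -0.14 to 0.16 for Bdnf and -0.21 to 0.78 for Egr2. Without CKO 2 Fosb was -0.0023. Without WT 2 Fos was -0.033 and Bdnf -0.073, without WT 3 Bdnf was -0.066, and without WT 4 Fos was -0.048. Within slide 2 Fos was -0.071 and Egr2 -0.18. Within slide 3 Fosb was -0.27, Bdnf -0.23, Inhba -0.63 and Dusp1 0.013. Bdnf was -0.055 with the slide as a fixed block, where Fosb was -0.012, -0.031 as a random block and -0.060 in males. Arc was -0.059 with the authors' values, and Fosl2 was 0.047 with median scaling. The lowest adjusted p of a named member under any alternative was 0.387. The spread without CKO 3 was computed after seeing the data.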
